A study of Mus musculus with 9 samples.

Results

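The serpin genes were measured in the livers of 9 C57BL/6 mice on a high-fat diet, as messenger RNA, by strand-specific sequencing of polyadenylated RNA. Members were chosen by symbol alone: every gene named Serpin with a clade letter from a to i and a number, leaving out 2 entries whose symbols mark them as pseudogenes. This gave 61 of the 23337 genes in the table. Of these, 6 were Serpina1 genes (clade a1), 11 were Serpina3 genes (clade a3) and 44 belonged to other clades.

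There were 3 groups of 3 mice each by the labels. WT mice carry floxed alleles of the gene for protease-activated receptor 2 (PAR2fl/fl), dHep mice are labelled as lacking the receptor in hepatocytes (PAR2dHep), and KO mice are labelled as lacking it in the whole body (PAR2 KO). All of them, the WT controls included, received the diet for 16 weeks from an age of 6 to 8 weeks, so no lean liver is in the comparison. The labels name neither the Cre driver nor the promoter behind the dHep deletion, nor the targeted allele of the KO mice, nor litter, cage or batch.

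Serpins are protease inhibitors that act as bait. A protease cuts the exposed reactive centre loop of the serpin, the loop snaps into the body of the inhibitor, and the protease is dragged along and left distorted in a covalent complex. Hepatocytes secrete many of the serpins of blood plasma, among them α1-antitrypsin, antithrombin and C1 inhibitor, while other family members work inside cells or have given up inhibition and carry hormones. PAR2 is itself switched on by serine proteases, the class of enzyme that most inhibitory serpins trap.

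The α1-antitrypsin genes of the mouse are tandem copies, and their start regions show how alike they are. The promoter sequences below are from RefSeq (GRCm38.p6), and 51 of the 61 members had an entry. Each of the first 5 stretches is 85 bases long, on the minus strand, and is read 5′ to 3′. They lie at chr12:103863626-103863710 (Serpina1a), chr12:103738201-103738285 (Serpina1b), chr12:103904963-103905047 (Serpina1c), chr12:103773635-103773719 (Serpina1d) and chr12:103956961-103957045 (Serpina1e). They are shown because the clade a1 results below turn on these 5 copies.
Serpina1a: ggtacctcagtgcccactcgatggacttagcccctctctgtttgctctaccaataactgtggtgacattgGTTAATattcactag
Serpina1b: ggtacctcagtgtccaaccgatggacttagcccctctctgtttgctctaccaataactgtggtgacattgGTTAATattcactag
Serpina1c: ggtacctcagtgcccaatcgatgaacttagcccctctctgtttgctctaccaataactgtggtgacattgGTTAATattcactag
Serpina1d: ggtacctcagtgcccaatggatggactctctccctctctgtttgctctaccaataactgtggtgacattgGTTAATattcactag
Serpina1e: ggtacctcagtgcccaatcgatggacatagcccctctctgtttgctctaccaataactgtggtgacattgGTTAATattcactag
Capitals mark the letters GTTAAT, which all 5 copies share, found by a search of both strands of the 250 bases before the annotated start. The match began 21, 26, 27, 16 and 78 bases before the start of Serpina1a to Serpina1e in that order, and 6.43% of 32851 promoter stretches of this length held these letters. The match is a description of letters and not a mapped binding site. Any pair of these 5 stretches was 91.8% to 97.6% identical. Over the whole 250 bases, Serpina1a to Serpina1d were 84.3% to 91% identical to each other. Serpina1e was 58% to 64.2% identical to them. The shared letters lie further from the annotated start in Serpina1e, so its 250 bases are shifted against the others. Ends without a counterpart count as differences, and Serpina1a and Serpina1e matched at 185 of 307 alignment columns. The lower figure is therefore not a measure of how the aligned bases differ.

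A similar likeness joins 2 clade a3 genes that behaved differently in the data, Serpina3c and Serpina3n. The stretches below are the 150 bases just before the annotated starts, at chr12:104153873-104154022 on the minus strand for Serpina3c and chr12:104406558-104406707 on the plus strand for Serpina3n.
Serpina3c: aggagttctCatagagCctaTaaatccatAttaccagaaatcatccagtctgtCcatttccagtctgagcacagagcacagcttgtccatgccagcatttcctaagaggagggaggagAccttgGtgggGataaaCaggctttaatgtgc
Serpina3n: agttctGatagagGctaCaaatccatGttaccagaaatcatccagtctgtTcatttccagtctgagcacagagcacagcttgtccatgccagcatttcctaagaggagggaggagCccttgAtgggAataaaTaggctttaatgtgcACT
Capitals mark bases that differ between the pair or have no counterpart in the alignment, 9 in Serpina3c and 12 in Serpina3n. Over 250 bases the pair was 90.5% identical.

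Depth ran from 18683660 to 30509242 reads assigned to genes per library. The summed level of 12 hepatocyte markers was 105000 to 111000 CPM (reads scaled to a library of 1e+06) in WT, 116000 to 168000 CPM in dHep and 117000 to 131000 CPM in the libraries labelled KO, and none of the 12 was at 0 in all libraries of a group. The targeted gene F2rl1, which encodes PAR2, had 17, 27 and 28 reads in WT, 2, 8 and 0 in dHep. The libraries labelled KO had 71, 103 and 76. Its reads in the libraries labelled KO, called labelled-KO libraries from here on, were therefore not fewer than in WT, and each direction given for them below carries that limit. WT replicate 1 and dHep replicate 2 stood apart by pancreas acinar markers, with a summed 498 and 1859 CPM against 0.444 to 30.4 CPM in the other 7 libraries. dHep replicate 2 also held 725 CPM of skeletal muscle markers against at most 65.4 CPM elsewhere. Because whole liver was sequenced, a lower level may stand for fewer cells that express a gene or for less of its RNA in each, and these cannot be told apart.

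Serpin messages were abundant in all 3 groups, and more so in dHep and in labelled-KO libraries. They took 1.81% ± 0.324 of assigned reads in WT, 3.27% ± 0.416 in dHep and 2.83% ± 0.222 in labelled-KO libraries (SD, n = 3). The single libraries stood at 2.17%, 1.69% and 1.55% in WT, 2.92%, 3.16% and 3.73% in dHep, and 2.57%, 2.93% and 2.98% in labelled-KO libraries. Neither group overlapped with WT. Hepatocyte markers moved with this share, and their summed CPM in both groups lay above every WT library. Of 11 tested, 6 rose in dHep and 4 in labelled-KO libraries and none fell, with a median log2 fold change of 0.54 in each. These counts are 54.5% and 36.4% of the markers, beside 24.3% and 43% of all tested genes. In labelled-KO libraries the markers were thus called in either direction no more often than other genes. All of these calls were higher, where 20.9% of all tested genes were called higher. The part of hepatocyte markers in the higher serpin levels, here and for the members below, was not tested. Of the 61 members, 9 had no read in any library, 20 more had reads but did not pass the filter on low counts, and 32 were tested. The mean was under 1 CPM over the 9 libraries in 31 members. At the other end, 18 members reached 100 CPM and 8 reached 1000 CPM in at least 1 group.

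Levels of different genes were compared per length, in TPM, which are reads divided by gene length and scaled to the library. In WT livers the highest serpins were Serpina1b at 5462 ± 357.7 TPM (SD, n = 3) and Serpina3k at 4554 ± 2919 TPM, whose spreads overlap. Serpina1d at 2313 TPM, Serpina1c at 1977 TPM and the antithrombin gene Serpinc1 at 1670 TPM followed. In dHep the order began with Serpina3k at 9662 TPM, Serpina1b at 6664 TPM, Serpina1c at 5018 TPM and Serpina1e at 4253 TPM. The labelled-KO libraries began with Serpina3k at 7895 TPM and Serpina1b at 6647 TPM, and Serpina1c and Serpina1a followed at nearly equal levels of 2588 and 2585 TPM.

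Differences between groups were tested with edgeR's quasi-likelihood test over all 13141 genes that passed the filter, and a gene is said to have risen or fallen where the Benjamini-Hochberg adjusted p over all of them was under 0.05. In dHep against WT, 10 of the 32 tested serpins rose and 6 fell, where 24.3% of all tested genes were called, 12.4% higher and 11.9% lower. In labelled-KO libraries against WT, 13 rose and 12 fell, where 43% of all tested genes were called, 20.9% higher and 22.1% lower. The median log2 fold change of the tested serpins was 0.16 in dHep against WT and 0.22 in labelled-KO libraries against WT, beside medians of 0.02 and -0.01 over all tested genes. Between groups, the CPM ranges of the 3 libraries did not overlap for 43.4% of all tested genes in dHep against WT, 66.3% in the labelled-KO libraries against WT and 26.5% in the labelled-KO libraries against dHep. Both comparisons with WT use the same WT libraries, so their values are given side by side and are not independent of each other.

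The α1-antitrypsin genes of clade a1, whose products shield tissue from neutrophil elastase, were higher in dHep livers than in WT, and Serpina1e changed most. In dHep, 4 of the 5 tested members rose and none fell, with a median log2 fold change of 1.18. In labelled-KO libraries, 3 rose, Serpina1d fell and the median was 0.76. The share of tested members called was 80% in each comparison, beside 24.3% and 43% of all tested genes. The remaining member, Serpina1f, had 1 read in all 9 libraries. Summed over the clade, WT libraries held 6431 to 8295 CPM, dHep libraries 15160 to 22590 CPM and the labelled-KO libraries 11840 to 13630 CPM, so the 3 groups did not overlap.

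Serpina1e (chr12:103946932-103956897, minus strand) had 274, 130.2 and 74.55 CPM in WT, 3973, 2808 and 2875 CPM in dHep, and 1003, 1212 and 1204 CPM in labelled-KO libraries. The 3 groups did not overlap, with dHep highest and WT lowest. Its log2 fold change was 4.33 ± 0.44 (SE) in dHep against WT (edgeR adjusted p = 0.000486), a 20.2-fold difference. In labelled-KO libraries against WT it was 2.84 ± 0.41 (edgeR adjusted p = 0.000929). WT replicate 1 was the highest WT library for Serpina1e, and without it the log2 fold changes were 4.97 in dHep and 3.48 in labelled-KO libraries. Within the clade, Serpina1e made up 2.22% ± 1.19 of the clade's TPM in WT, 20% ± 7.16 in dHep and 9.7% ± 0.349 in labelled-KO libraries (SD, n = 3).

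Serpina1a stood at 989, 849 and 745 CPM in WT, 1495, 1876 and 2479 CPM in dHep, and 2770, 3117 and 2999 CPM in labelled-KO libraries. Here the order was different, with the labelled-KO libraries above every dHep library and both above WT. It rose by 1.18 ± 0.20 (SE) on the log2 scale in dHep (edgeR adjusted p = 0.0042) and by 1.78 ± 0.21 in labelled-KO libraries (edgeR adjusted p = 0.000379). Its share of the clade's TPM was 8.82% in WT, 8.17% in dHep and 17.9% in labelled-KO libraries.

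Serpina1d (chr12:103763587-103773633, minus strand) was the tested copy that fell in labelled-KO libraries. Its values were 1656, 1590 and 1343 CPM in WT, 2559, 3027 and 4017 CPM in dHep, and 1030, 1085 and 1019 CPM in labelled-KO libraries. All dHep libraries lay above WT and all labelled-KO libraries lay below it. The log2 fold change against WT was 1.07 ± 0.18 (SE) in dHep (edgeR adjusted p = 0.00441) and -0.55 ± 0.18 in labelled-KO libraries (edgeR adjusted p = 0.0357). The second call ended without WT replicate 1 or 2 or without any 1 of the labelled-KO libraries, with edgeR adjusted p from 0.00101 to 0.108 over the 18 alternatives.

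Serpina1c had 1635, 1225 and 1013 CPM in WT, 2871, 3279 and 6257 CPM in dHep, and 1933, 2280 and 2328 CPM in labelled-KO libraries. No dHep library overlapped with WT, and dHep replicate 3 lay far above the other dHep libraries. It rose in dHep by 1.68 ± 0.31 (SE) in log2 (edgeR adjusted p = 0.00543), and the difference of 0.76 ± 0.30 in labelled-KO libraries did not pass (edgeR adjusted p = 0.0666). That last difference passed without dHep replicate 1 (0.042) or dHep replicate 3 (0.01), and adjusted p ran from 0.00191, with limma voom and quality weights, to 0.204 over all alternatives.

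Serpina1b was the most abundant copy. Its levels were 3741, 3710 and 3256 CPM in WT, 4259, 5043 and 6961 CPM in dHep, and 5106, 5624 and 6078 CPM in labelled-KO libraries. Both groups lay above WT. The log2 fold change was 0.60 ± 0.21 (SE) in dHep, which did not pass (edgeR adjusted p = 0.0643), and 0.65 ± 0.21 in labelled-KO libraries, which did (edgeR adjusted p = 0.0321). Leaving out dHep replicate 1 (0.0166) or 2 (0.0493) brought the first under the threshold, with 0.00548 to 0.195 over the alternatives. The second was lost without any 1 of the WT libraries or without replicate 2 or 3 of the labelled-KO libraries, with 0.000301 to 0.108 over the alternatives.

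**Figure D1:**
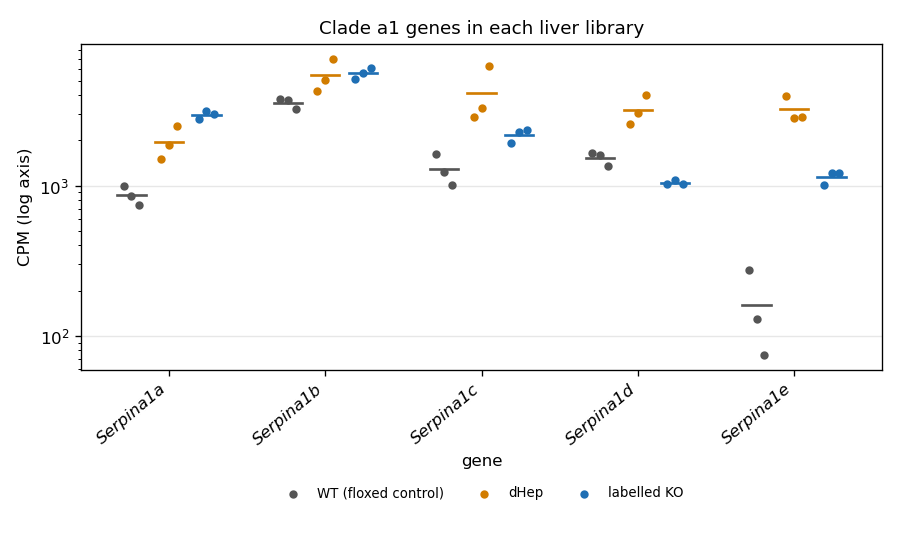
Levels of the 5 tested clade a1 genes in CPM (log axis) in each of 9 liver libraries; each point is 1 library and each bar the group mean. Serpina1e spans the widest range, from 74.55 CPM in WT replicate 3 to 3973 CPM in dHep replicate 1, and Serpina1d is the copy whose 3 labelled-KO libraries lie below WT.

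How reads were divided among these copies is uncertain. In a search of annotated transcripts, 67.4% of the 50-base windows of Serpina1a, 35.8% of Serpina1b, 74.2% of Serpina1c, 50.9% of Serpina1d and 35.6% of Serpina1e were also found in another gene, and the read length is not given in the sources used here. The sum over the clade does not depend on how reads were divided among these 5 genes. It would still lack any reads left out for having several matches, and how such reads were treated is not given either. Such a loss could differ between copies, and so between groups with different shares of the copies. Reads could also have gone to the annotated gene Gm8893, which shares windows with Serpina1a, Serpina1b and Serpina1c.

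Clade a3, the mouse relatives of α1-antichymotrypsin, split into members that rose and members that fell. In labelled-KO libraries, Serpina3c, Serpina3m and Serpina3k rose while Serpina3f, Serpina3g and Serpina3h fell, 6 of the 7 tested members. In dHep only Serpina3k rose and only Serpina3g fell among the 7. The shares called were 28.6% in dHep and 85.7% in labelled-KO libraries, beside 24.3% and 43% of all tested genes. The median log2 fold change of the clade was -0.47 in dHep and 0.08 in labelled-KO libraries. Of the 4 untested members, Serpina3j had no read, and Serpina3a, Serpina3b and Serpina3i had 1, 24 and 50 reads over the 9 libraries.

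Serpina3c (chr12:104146907-104153872, minus strand) was low in WT and dHep and abundant in labelled-KO libraries. It had 2.48, 3.78 and 3.64 CPM in WT, 1.77, 2.81 and 2.65 CPM in dHep, and 500.2, 536 and 662 CPM in labelled-KO libraries. WT and dHep overlapped, and every labelled-KO library lay far above both. The group totals were 270 reads in WT, 183 in dHep and 34004 in labelled-KO libraries. Against WT the log2 fold change was 7.42 ± 0.25 (SE) in labelled-KO libraries, a 171-fold difference (edgeR adjusted p = 1.09e-06), and -0.47 ± 0.23 in dHep, which did not pass (edgeR adjusted p = 0.156, with 0.038 to 0.388 over the alternatives, the lowest without TMM scaling). Of its 50-base windows, 4.25% were found in another gene, and none of its 100-base windows. Serpina3n, whose promoter letters were shown beside those of Serpina3c, did not follow it.

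Serpina3n, a gene of the acute-phase response, had 515, 612 and 537 CPM in WT, 325, 573 and 541 CPM in dHep, and 609, 543 and 608 CPM in labelled-KO libraries. All groups overlapped. The log2 fold changes against WT were -0.21 ± 0.20 (SE) in dHep and 0.08 ± 0.20 in labelled-KO libraries (edgeR adjusted p = 0.463 and 0.761).

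Serpina3k, the contrapsin gene, was the most abundant clade a3 member in each group and made up 75.7% of the clade's TPM in WT, 91.1% in dHep and 78.6% in labelled-KO libraries. It stood at 6013, 2244 and 2097 CPM in WT, 5994, 9889 and 11580 CPM in dHep, and 6414, 7719 and 9048 CPM in labelled-KO libraries. WT replicate 1 lay far above the other WT libraries and at the level of dHep replicate 1. The log2 fold change was 1.41 ± 0.43 (SE) in dHep (edgeR adjusted p = 0.0393) and 1.16 ± 0.42 in labelled-KO libraries (edgeR adjusted p = 0.0493). Without WT replicate 1 these became 2.08 and 1.83. Both calls ended without WT replicate 2 or 3, dHep replicate 2 or any 1 of the labelled-KO libraries, and the dHep call also without dHep replicate 3, with adjusted p from 0.00598 to 0.14 over the alternatives in dHep and 0.00374 to 0.159 in labelled-KO libraries. WT replicate 1 is also the WT library with pancreas markers, and their part in its Serpina3k level was not tested.

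Serpina3m had 404, 476 and 457 CPM in WT, 323, 637 and 514 CPM in dHep, and 891, 1137 and 1201 CPM in labelled-KO libraries. The labelled-KO libraries lay above all others, while WT and dHep overlapped. It rose in labelled-KO libraries by 1.27 ± 0.23 (SE) on the log2 scale (edgeR adjusted p = 0.00248). In dHep the value was 0.14 ± 0.23 (edgeR adjusted p = 0.683), and it fell below 0 without dHep replicate 2 (-0.09).

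The falling members were much less abundant. Serpina3g, which encodes an intracellular inhibitor of cathepsins known from leukocytes, had 16.9, 14.9 and 24.0 CPM in WT, 10.7, 8.54 and 7.01 CPM in dHep, and 4.13, 6.74 and 6 CPM in labelled-KO libraries. The 3 groups did not overlap, with WT highest. Its log2 fold change was -1.08 ± 0.24 (SE) in dHep (edgeR adjusted p = 0.0116) and -1.73 ± 0.25 in labelled-KO libraries (edgeR adjusted p = 0.00087). The dHep call ended without WT replicate 3 (0.0571), with 0.000445 to 0.0647 over the alternatives.

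Serpina3f had 6.38, 3.74 and 8.66 CPM in WT, 4.23, 3.57 and 3.04 CPM in dHep, and 1.55, 3.03 and 2.14 CPM in labelled-KO libraries. WT overlapped with dHep and lay above the labelled-KO libraries. It fell in labelled-KO libraries by 1.48 on the log2 scale, with an SE of 0.34 (edgeR adjusted p = 0.00716), and the dHep value of -0.79 ± 0.33 did not pass (edgeR adjusted p = 0.107). The annotated exons of Serpina3f and Serpina3g share 147 bases, so some reads could belong to either. Together they held 18.6 to 32.7 CPM in WT, 10.1 to 15 CPM in dHep and 5.68 to 9.76 CPM in labelled-KO libraries. Serpina3h, with 48, 23 and 12 reads in the 3 groups, fell in labelled-KO libraries (log2 fold change -1.53 ± 0.45, edgeR adjusted p = 0.0212).

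Macrophage markers moved with these low members. The summed level of 9 of them was 473 to 570 CPM in WT, 229 to 415 CPM in dHep and 99.7 to 185 CPM in labelled-KO libraries, none was at 0 in all libraries of a group, and their part in the fall of Serpina3f, Serpina3g and Serpina3h was not tested.

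**Figure D2:**
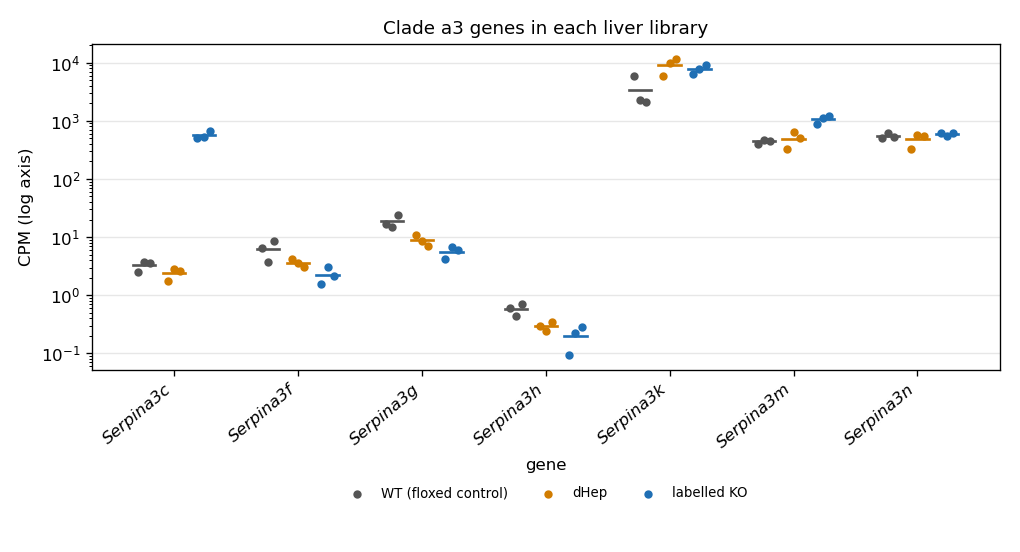
Levels of the 7 tested clade a3 genes in CPM (log axis) in each of 9 liver libraries; each point is 1 library and each bar the group mean. The 3 labelled-KO libraries sit at 500.2 to 662 CPM for Serpina3c against 1.77 to 3.78 CPM in the other 6, and Serpina3n overlaps in all groups.

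The 23 serpin genes of chromosome 12 lie in 1 cluster, from position 103616675 to 104414329 of mm10. In this order the cluster runs Serpina10, Serpina6, the clade a1 genes, Serpina11, Serpina9, Serpina12, Serpina5 and the clade a3 genes. Neighbours did not move alike. Serpina11 and Serpina9, next to Serpina1e, rose in both comparisons with WT, while Serpina12, next to Serpina9, fell in labelled-KO libraries and Serpina10, at the edge, did not pass in either comparison.

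**Figure D3:**
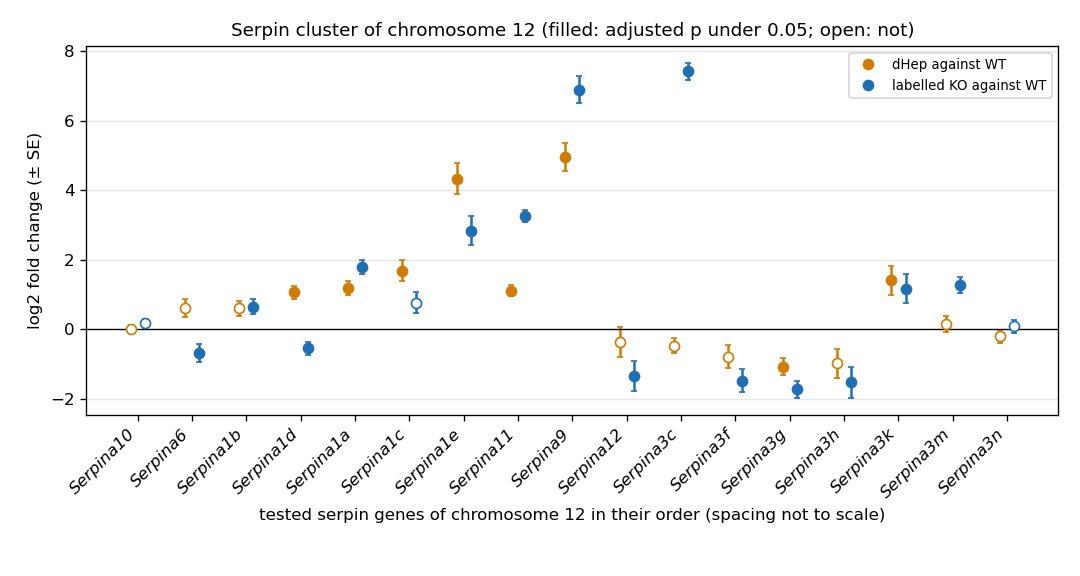
Log2 fold change (± SE) of the 17 tested serpin genes of chromosome 12 in their order along the chromosome, spacing not to scale, in dHep against WT and in labelled-KO libraries against WT. Filled points passed an edgeR adjusted p under 0.05; Serpina3c at 7.42 and Serpina9 at 6.89 are the highest points, both in labelled-KO libraries, and both comparisons share the WT libraries.

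Outside clades a1 and a3, 20 of 44 members were tested, and rises and falls were about even. In dHep 5 rose and 5 fell, with a median log2 fold change of 0.09. In labelled-KO libraries 7 rose and 8 fell, with a median of -0.25. The shares called were 50% and 75%, beside 24.3% and 43% of all tested genes. The secreted inhibitors of clotting, fibrinolysis and complement were among those that rose, and the inhibitors that act inside cells among those that fell.

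Serpina9, a gene known from germinal centre B cells, had 2 reads in each WT library, or 0.0713 to 0.0751 CPM. It had 1.77, 2.97 and 2.55 CPM in dHep and 6.47, 9.58 and 12 CPM in labelled-KO libraries. Every dHep library lay above WT, and every labelled-KO library above dHep. The group totals were 6, 185 and 558 reads, and the log2 fold changes against WT were 4.95 ± 0.40 (SE) in dHep (edgeR adjusted p = 0.000163) and 6.89 ± 0.39 in labelled-KO libraries (edgeR adjusted p = 1.48e-05).

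Serpina11, a liver serpin whose target is little known, had 40.1, 39.7 and 36.7 CPM in WT, 61.8, 98.8 and 90.5 CPM in dHep, and 348, 372 and 389 CPM in labelled-KO libraries. The 3 groups did not overlap. It rose by 1.11 ± 0.16 (SE) on the log2 scale in dHep (edgeR adjusted p = 0.00198) and by 3.25 ± 0.17 in labelled-KO libraries (edgeR adjusted p = 9.04e-06). Of its 50-base windows, 43.9% were also found in the annotated gene Gm28577, so its reads may not all be its own.

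Among the inhibitors of fibrinolysis, Serpinf2 encodes α2-antiplasmin, the main plasma inhibitor of plasmin. It stood at 469, 463 and 418 CPM in WT, 688, 823 and 806 CPM in dHep, and 987, 925 and 889 CPM in labelled-KO libraries. No group overlapped with another. It rose by 0.78 ± 0.12 (SE) on the log2 scale in dHep (edgeR adjusted p = 0.00262) and by 1.05 ± 0.12 in labelled-KO libraries (edgeR adjusted p = 0.000369). Its neighbour on chromosome 11, Serpinf1, encodes PEDF, a secreted serpin that does not inhibit proteases and is known for blocking vessel growth. It had 322, 336 and 332 CPM in WT, 390.4, 502 and 678 CPM in dHep, and 542, 576 and 572 CPM in labelled-KO libraries. Both groups lay above WT. Serpinf1 changed by a log2 fold of 0.67 ± 0.18 in dHep (edgeR adjusted p = 0.0234) and 0.77 ± 0.18 in labelled-KO libraries (edgeR adjusted p = 0.00711). The dHep call of Serpinf1 ended without any 1 of the WT libraries, with 0.00208 to 0.0824 over the alternatives.

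Serpine2, whose product protease nexin 1 inhibits thrombin and urokinase, rose in both comparisons with WT. It had 2.97, 1.85 and 2.96 CPM in WT, 13.6, 21.9 and 1.96 CPM in dHep, and 30.2, 37 and 36.2 CPM in labelled-KO libraries. dHep replicate 3 lay among the WT libraries, and the labelled-KO libraries lay above all others. Its log2 fold change was 2.27 ± 0.64 (SE) in dHep (edgeR adjusted p = 0.0295) and 3.73 ± 0.66 in labelled-KO libraries (edgeR adjusted p = 0.00223). The dHep call ended without any 1 of the WT libraries or without dHep replicate 1 or 2 (0.000785 to 0.115 over the alternatives), and its value was 1.63 without dHep replicate 2 and 2.77 without dHep replicate 3.

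The inhibitors of clotting moved less. Serpinc1, the antithrombin gene, had 1611, 1727 and 1623 CPM in WT, 1655, 2303 and 2467 CPM in dHep, and 2357, 2525 and 2567 CPM in labelled-KO libraries. dHep overlapped with WT, and the labelled-KO libraries lay above it. It rose in labelled-KO libraries by 0.59 ± 0.17 (SE) in log2 (edgeR adjusted p = 0.02), and the dHep value of 0.37 ± 0.17 did not pass (edgeR adjusted p = 0.136). The call ended without any 1 of the WT libraries or without replicate 2 or 3 of the labelled-KO libraries (0.000245 to 0.0678 over the alternatives), and the dHep value passed without dHep replicate 1 (0.0111 to 0.333).

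Serpind1, the gene of heparin cofactor II, stood at 580.3 to 642 CPM in WT, 586 to 762 CPM in dHep and 685 to 784 CPM in labelled-KO libraries. Neither of its log2 fold changes, 0.17 ± 0.13 (SE) in dHep and 0.28 ± 0.13 in labelled-KO libraries, passed (edgeR adjusted p = 0.372 and 0.111), though the second did without dHep replicate 1 (0.0365, with 0.0125 to 0.453 over the alternatives). Serpina10, which encodes the protein Z-dependent inhibitor of factor Xa, had 234 to 244 CPM in WT, 205 to 276 CPM in dHep and 233 to 289 CPM in labelled-KO libraries, and all groups overlapped. Its log2 fold changes were 0.01 ± 0.13 and 0.17 ± 0.13 (edgeR adjusted p = 0.98 and 0.317).

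Serping1 encodes C1 inhibitor, which restrains complement C1 and plasma kallikrein. It had 582, 597 and 522 CPM in WT, 599, 939 and 991 CPM in dHep, and 886, 862 and 1024 CPM in labelled-KO libraries. All libraries of both groups lay above WT, dHep replicate 1 only just. It rose in labelled-KO libraries by 0.71 ± 0.19 (SE) in log2 (edgeR adjusted p = 0.0139), and the dHep value of 0.57 ± 0.19 missed the threshold (edgeR adjusted p = 0.0502). The dHep value passed without dHep replicate 1 (0.00342, with 0.00342 to 0.168 over the alternatives), and the other call ended without WT replicate 3 (0.0592) or replicate 3 of the labelled-KO libraries (0.0554, with 0.000237 to 0.0592 over the alternatives).

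The hormone carriers Serpina7 and Serpina6 were lower in labelled-KO libraries, and Serpina7 also in dHep. Serpina7, on the X chromosome, encodes thyroxine-binding globulin. It had 300.3, 304 and 262 CPM in WT, 140.4, 90.7 and 62.8 CPM in dHep, and 78.9, 70.8 and 69.7 CPM in labelled-KO libraries. Both groups lay below every WT library. It fell by 1.56 in dHep (SE 0.24, edgeR adjusted p = 0.00266) and by 1.98 in labelled-KO libraries (SE 0.24, edgeR adjusted p = 0.000489) on the log2 scale.

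Serpina6 encodes corticosteroid-binding globulin. It had 345, 477 and 420 CPM in WT, 378, 757 and 753 CPM in dHep, and 285, 217 and 265 CPM in labelled-KO libraries. dHep overlapped with WT, and the labelled-KO libraries lay below both. The log2 fold change was -0.69 ± 0.25 (SE) in labelled-KO libraries (edgeR adjusted p = 0.0495) and 0.61 ± 0.25 in dHep, which did not pass (edgeR adjusted p = 0.11). The first call ended without any 1 of the libraries of the 2 groups compared (0.00226 to 0.159 over the alternatives), and the dHep value passed without dHep replicate 1 (0.00686, with 0.00686 to 0.448 over the alternatives). Agt, the angiotensinogen gene, has a serpin fold but another symbol and was no member. It rose in both comparisons with WT, by 0.62 ± 0.19 and 0.72 ± 0.19 (edgeR adjusted p = 0.0405 and 0.0131).

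Serpina12 encodes vaspin, a secreted inhibitor of kallikrein 7 known as an adipokine. It had 85.8, 50.1 and 65 CPM in WT, 60.8, 19.7 and 74.2 CPM in dHep, and 16.2, 31.1 and 31.4 CPM in labelled-KO libraries. WT and dHep overlapped, with dHep replicate 2 far below its fellows, and the labelled-KO libraries lay below WT. It fell in labelled-KO libraries by 1.35 on the log2 scale (SE 0.44, edgeR adjusted p = 0.0333), and the call ended without WT replicate 1 or 3 or any 1 of the labelled-KO libraries (0.00393 to 0.107 over the alternatives). The dHep value was -0.38 ± 0.43 (edgeR adjusted p = 0.555), and 0.01 without dHep replicate 2.

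Serpinh1 encodes HSP47, a collagen chaperone of the endoplasmic reticulum that does not inhibit proteases. It had 17.8, 17.8 and 16.8 CPM in WT, 7.19, 10.6 and 11.4 CPM in dHep, and 7.36, 14.6 and 9.81 CPM in labelled-KO libraries. Both groups lay below WT. Its log2 fold change was -0.85 ± 0.24 (SE) in dHep (edgeR adjusted p = 0.0317) and -0.72 ± 0.24 in labelled-KO libraries (edgeR adjusted p = 0.0368). The dHep call ended without any 1 of the WT libraries, dHep replicate 1 or replicate 3 of the labelled-KO libraries (0.00981 to 0.096 over the alternatives). The other ended without any 1 of the WT libraries or without replicate 1 or 3 of the labelled-KO libraries (0.00246 to 0.113). Markers of stellate cells and fibroblasts, 12 genes that include collagen genes, summed to 633 to 713 CPM in WT, 318 to 503 CPM in dHep and 273 to 358 CPM in labelled-KO libraries. Their part in the fall of Serpinh1 was not tested.

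The clade b serpins guard cells from proteases released inside them. Of the 5 tested members, 3 fell in labelled-KO libraries, where 22.1% of all tested genes were called lower. Serpinb9, the inhibitor of granzyme B, had 17.4, 17.9 and 19.5 CPM in WT, 15.6, 13.7 and 10.7 CPM in dHep, and 10.4, 10.2 and 10.9 CPM in labelled-KO libraries. Both groups lay below WT. Its log2 fold change was -0.45 ± 0.14 (SE) in dHep (edgeR adjusted p = 0.0411) and -0.80 ± 0.14 in labelled-KO libraries (edgeR adjusted p = 0.00213). The dHep call ended without any 1 library other than dHep replicate 1 (0.0165 to 0.15 over the alternatives).

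Serpinb6b had 5.33, 6.11 and 7.27 CPM in WT, 2.46, 2.73 and 1.72 CPM in dHep, and 2.86, 2.76 and 3.40 CPM in labelled-KO libraries. Every WT library was above all others. It fell by 1.43 in dHep (SE 0.22, edgeR adjusted p = 0.00246) and by 1.05 in labelled-KO libraries (SE 0.22, edgeR adjusted p = 0.00431) on the log2 scale. Serpinb6a, an inhibitor of cathepsin G, had 25.4, 23.6 and 24.7 CPM in WT, 15.3, 24.3 and 15.2 CPM in dHep, and 18.3, 14 and 10.6 CPM in labelled-KO libraries. dHep replicate 2 was at the WT level, and the labelled-KO libraries lay below WT. Serpinb6a fell in labelled-KO libraries by 0.78 on the log2 scale (SE 0.23, edgeR adjusted p = 0.0207), a call that ended without WT replicate 1 or 3 or replicate 2 or 3 of the labelled-KO libraries (0.000361 to 0.0715 over the alternatives). In dHep its value of -0.43 ± 0.22 did not pass (edgeR adjusted p = 0.19), except without dHep replicate 2 (0.0267, with 0.0267 to 0.393 over the alternatives).

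The other tested clade b genes did not pass. Serpinb8, an inhibitor of furin, had a log2 fold change of -0.66 ± 0.26 (SE) in labelled-KO libraries (edgeR adjusted p = 0.0613). Serpinb1a, the leukocyte elastase inhibitor, had 2.853, 4 and 3.457 CPM in WT, 5.215, 4.813 and 12.45 CPM in dHep, and 9.334, 1.13 and 2.654 CPM in labelled-KO libraries. Every dHep library lay above WT, and the labelled-KO libraries overlapped with both. Its log2 fold change was 1.12 ± 0.64 (SE) in dHep and 0.35 ± 0.65 in labelled-KO libraries (edgeR adjusted p = 0.23 and 0.685). Serpini1, the neuroserpin gene, had 63, 28 and 22 reads in the 3 groups and did not pass either (edgeR adjusted p = 0.149 in dHep and 0.13 in labelled-KO libraries). The macrophage marker sums given above moved with the clade b genes that fell, and neutrophil markers summed to 6.42 to 10.6 CPM in WT, 5.98 to 12.6 CPM in dHep and 3.24 to 3.53 CPM in labelled-KO libraries. The part of these cells was not tested.

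**Figure D4:**
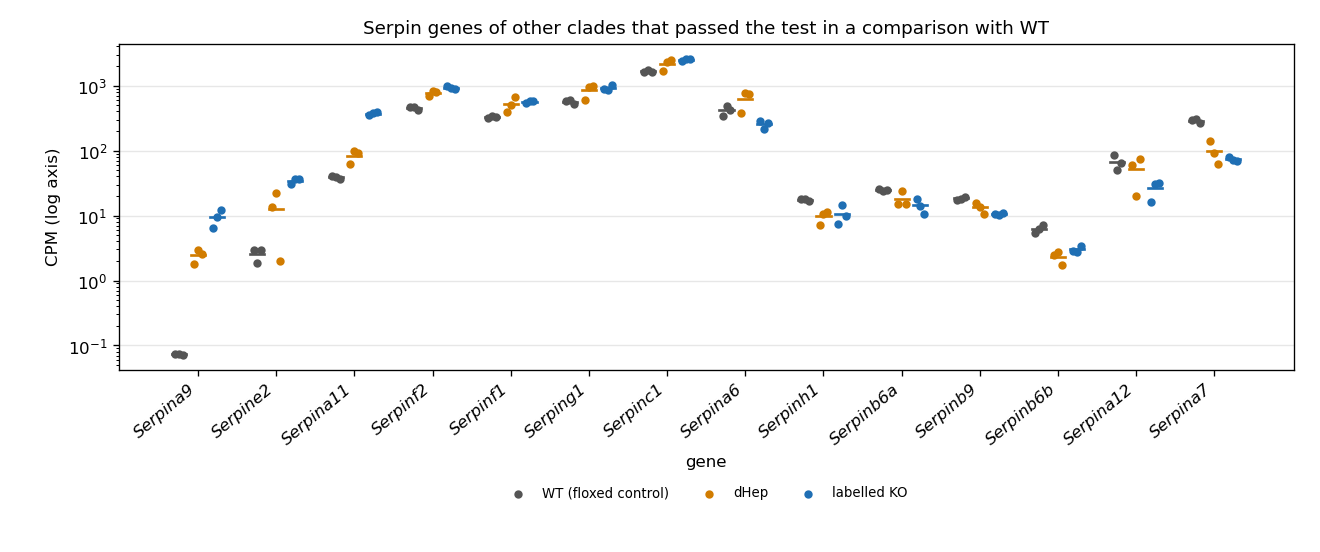
Levels of serpins of other clades that passed the test in a comparison with WT, in CPM (log axis) in each of 9 liver libraries; each point is 1 library and each bar the group mean. Serpina9 runs from 0.0713 CPM in WT to 12 CPM in labelled-KO libraries, Serpina7 lies highest in the 3 WT libraries, and dHep replicate 3 of Serpine2 sits at 1.96 CPM beside WT.

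The labelled-KO libraries were also compared directly with dHep, which shows where the 2 groups differed from each other. Of the 32 tested serpins 4 were higher and 3 lower, where 9.62% of all tested genes were called, 4.23% higher and 5.39% lower. Serpina3c was 7.89 ± 0.26 (SE) higher on the log2 scale (edgeR adjusted p = 7.97e-07), Serpina11 2.14 ± 0.16 higher (edgeR adjusted p = 0.000191), Serpina9 1.95 ± 0.27 higher (edgeR adjusted p = 0.00393) and Serpina3m 1.13 ± 0.23 higher (edgeR adjusted p = 0.0176). Serpina1d differed by -1.61 ± 0.19 (edgeR adjusted p = 0.00171), Serpina1e by -1.50 ± 0.39 (edgeR adjusted p = 0.0443) and Serpina6 by -1.30 ± 0.26 (edgeR adjusted p = 0.016). The median log2 fold change was -0.92 in clade a1, -0.24 in clade a3 and 0.12 in other clades, beside -0.02 over all tested genes. The calls of Serpina3m and Serpina6 ended without replicate 2 or 3 of the labelled-KO libraries (edgeR adjusted p up to 0.0726 and 0.0718), and the Serpina1e call ended without WT replicate 2, dHep replicate 1 or 2 or any 1 of the labelled-KO libraries (0.0119 to 0.245 over the alternatives).

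Of the 24 untested members of other clades, 8 had no read and 16 had between 1 and 89 over the 9 libraries. Some low serpins had nearly all their reads in dHep replicate 2. It held 87 of 89 reads of Serpinb12, 87 of 89 of Serpinb3c, 49 of 49 of Serpinb3a and 21 of 28 of Serpinb5. Serpinb3b and Serpinb11 had 6 reads each, all in this library. Serpini2, whose product is known from the pancreas, had 56 reads in dHep replicate 2 and 29 in WT replicate 1 and none in the other 7, the same libraries that held the pancreas acinar markers. None of these genes was tested, and the part of other tissue in them was not tested either.

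**Figure D5:**
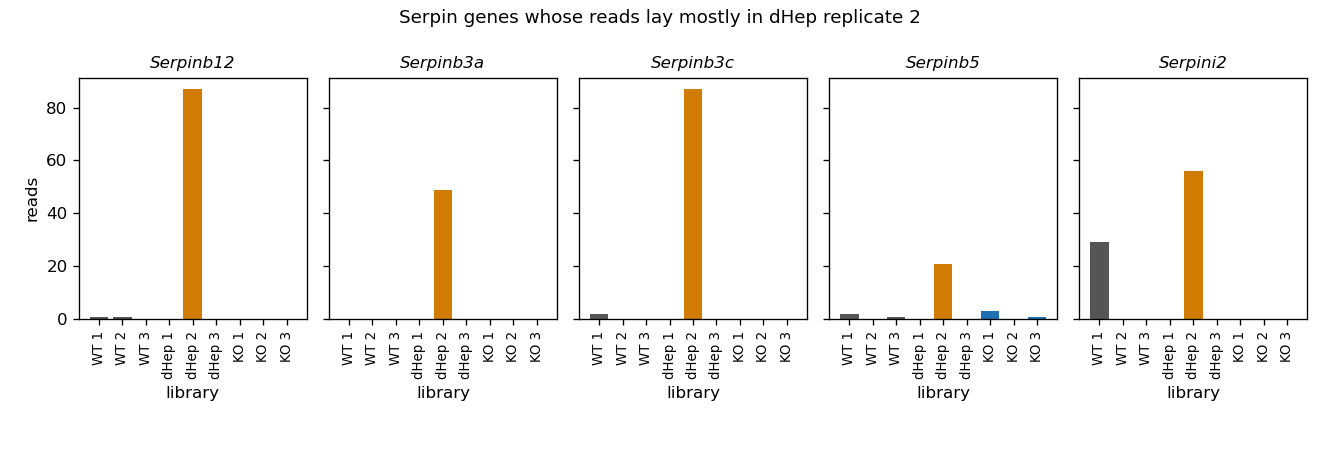
Reads per library (bars) of 5 serpin genes whose reads lay mostly in dHep replicate 2. Serpinb12 and Serpinb3c reach 87 reads there, and Serpini2 has reads in dHep replicate 2 (56) and WT replicate 1 (29) and none elsewhere.

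The proteases that liver serpins meet in plasma rose or did not pass, in both comparisons with WT. Of 16 tested proteases made by the liver, 8 rose and none fell in dHep, and 10 rose and none fell in labelled-KO libraries, 50% and 62.5% of the list beside 24.3% and 43% of all tested genes, with median log2 fold changes of 0.45 and 0.81. The summed level of the hepatocyte markers was also higher in both groups than in WT, and their part was not tested. F11, the factor XI zymogen and a target of antithrombin and C1 inhibitor, rose by 1.24 and 1.54, and Hgfac, a target of protein C inhibitor, by 0.69 and 0.81. F7 rose by 1.36 in dHep, and Proc, the protein C gene, by 1.29 in labelled-KO libraries. Each was named for its small p in that comparison, and its value in the other is not reported here. Of 6 tested proteases of leukocytes and lysosomes, 2 fell in dHep and 1 in labelled-KO libraries, and none rose. These are 33.3% and 16.7% of that list, beside 24.3% and 43% of all tested genes, so the list was called no more often than other genes in labelled-KO libraries. Ctss, the cathepsin S gene, fell by 1.33 and 2.07, and Gzmb, the target of Serpinb9, fell by 1.88 in dHep.

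Genes of plasminogen activation, the system that Serpine2 and Serpinf2 restrain, went both ways. Of 8 tested, 2 rose and 4 fell in each comparison with WT, 75% of the list beside 24.3% and 43% of all tested genes. Plau and Plat, the urokinase and tissue activators, fell by 1.48 and 2.02 in dHep and by 2.29 and 1.87 in labelled-KO libraries. Anxa2, a cell-surface receptor for plasminogen, fell by 3.03 and 2.46. Vtn, the vitronectin gene, rose by 0.79 and 1.12, and Plg by 0.57 and 0.81. The median log2 fold changes of the list were -1.14 and -0.88.

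Collagens and their processing enzymes, the clients and partners of Serpinh1, were lower. Of 20 tested, 1 rose and 11 fell in dHep, and 3 rose and 13 fell in labelled-KO libraries, with medians of -1.12 and -1.08. These counts are 60% and 80% of the list, beside 24.3% and 43% of all tested genes. Col3a1 fell by 2.37 and 2.20 and Col4a2 by 1.75 and 1.40 on the log2 scale. Of 14 tested genes that fold, ship, discard or take up serpins, 1 rose and 3 fell in dHep, and 7 rose and none fell in labelled-KO libraries. That is 28.6% and 50% of the list, beside 24.3% and 43% of all tested genes. All calls in labelled-KO libraries were higher, where 20.9% of all tested genes were called higher. Lrp1, the receptor that clears serpin-protease complexes, rose by 0.59 and 0.85, and Syvn1, a ubiquitin ligase of the endoplasmic reticulum, rose by 1.34 in labelled-KO libraries. Directly against dHep, 6 of the 14 were higher in labelled-KO libraries and none lower, 42.9% beside 9.62% of all tested genes.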

How the data were processed

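Liver RNA was sequenced from 9 mice, 3 per group. Per the submitters' processing notes, reads were checked with FastQC and aligned to mm10 with HISAT2 2.1.0. The table of counts that the authors deposited came from featureCounts 1.6.2 run with strand setting 2, per the file headers, and also gives the length of each gene in bases; how reads with several matches were treated, and the read length, are not given in the sources used here.

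Counts entered 1 edgeR 4.0.16 quasi-likelihood fit (R 4.3.3) of all 9 libraries, with TMM factors (0.883 to 1.10), a mean per group and filterByExpr (minimum count 10, minimum total 15), which kept 13141 genes. A p was adjusted over all of them by the Benjamini-Hochberg method, threshold 0.05; the SE is the log2 fold change divided by the square root of F. CPM uses TMM-scaled library sizes, and TPM the deposited lengths. The test was tried on simulated data first. With 3 against 3 libraries an exact two-sided permutation test cannot go below 0.1.

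The members and lists were chosen with earlier results of these data known. Values per library are given for members at 1 CPM or more over the 9 libraries that passed in any comparison, levels for those at 100 CPM or more in a group, and up to 3 genes per list and direction; some list genes are left out of the text, and a few items that enter the counts are not reported here. Genes whose reads lay mostly in 1 library are also named. The 18 alternatives were median-of-ratios size factors, DESeq2 1.42.0, limma 3.58.1 voom with quality weights, no filter, a filter of 1 CPM in 3 libraries, only the 2 groups compared, the replicate number as a block, 2 libraries left out together (WT replicate 1 and dHep replicate 2), each library left out, and, added after the data were seen, library totals without TMM. Windows came from GENCODE transcripts of mm10, and exon overlaps from the exon coordinates deposited with the counts.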

Additional observations from a re-analysis of the deposited data

How the results depend on the processing

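The number of serpins called was 16 in dHep against WT, 9 to 18 with 1 library left out, and 12 to 19 under the other alternatives. In labelled-KO libraries against WT it was 25, and 15 to 27 with 1 library left out. In labelled-KO libraries against dHep it was 7, and 4 to 11 with 1 library left out. The lowest counts came without WT replicate 2 (10) or 3 (9) for dHep, without WT replicate 3 (15) or replicate 2 (16) or 3 (15) of the labelled-KO libraries for those against WT, and without replicate 2 or 3 of the labelled-KO libraries (4 each) against dHep, where leaving out dHep replicate 3 gave 11. Fewer libraries entered each of these fits, and the share called over all tested genes moved too. In dHep against WT it was 10.8% and 10.2% without WT replicate 2 or 3, beside 24.3% as reported. For labelled-KO libraries against WT it was 28.8% without WT replicate 3, beside 43%. Without replicate 2 or 3 of the labelled-KO libraries it was 30.5% and 30.7% against WT. Against dHep these gave 3.12% and 2.88%, and leaving out dHep replicate 3 gave 20.9%, beside 9.62%. Without WT replicate 1 and dHep replicate 2 together the counts were 12, 21 and 7.

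Called directions of the named members held under all 18 alternatives. The reversals were all in values that had not passed: in dHep, Serpina3m (-0.158 without WT replicate 1 and dHep replicate 2 together, -0.05 without TMM, -0.089 without dHep replicate 2), Serpina12 (0.229 with both out, 0.013 without dHep replicate 2), Serpina3n (0.006 without dHep replicate 1), Serpind1 (-0.004 without TMM) and Serpina10 (-0.025 with limma voom, -0.001 with no filter, -0.006 with the replicate block, -0.11 with both out, -0.168 without TMM, -0.009 without WT replicate 2, -0.106 without dHep replicate 2). In labelled-KO libraries without TMM, Serpina3n was -0.105 and Serpina10 -0.019. With 1 library left out the dHep values ran from -0.089 to 0.369 for Serpina3m, -0.73 to 0.013 for Serpina12, -0.357 to 0.006 for Serpina3n and -0.106 to 0.107 for Serpina10. The cause was not tested. Without TMM the median of all tested genes was -0.145 in dHep and -0.198 in labelled-KO libraries.

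With the replicate number as a block, 13, 22 and 6 serpins were called. Over 9 same-numbered pairs the correlation of deviations from group means was -0.185 to 0.043, with 0 over 0.1. This check showed no pairing by number, and with 3 libraries per group it cannot exclude one.

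Of the 29 untested members, 9 had no read and 20 had too few to pass the filter, and the part of depth was not tested. Shared sequence limits the division of reads among Serpina1 copies.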

Other observations

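Of 23 tested protease inhibitors of plasma that are not serpins, 2 rose and 4 fell in dHep against WT, and 7 rose and 8 fell in labelled-KO libraries against WT. That is 26.1% and 65.2% of the list beside 24.3% and 43% of all tested genes, so the dHep share was near that of all genes. Fetub and Ahsg, the fetuin genes of the liver, rose by 1.35 and 1.03 on the log2 scale in dHep and by 1.49 and 0.94 in labelled-KO libraries. Mug1 rose by 1.35 and Mug2, its relative among the murinoglobulins, fell by 1.85 in labelled-KO libraries, and reads of this pair could be divided either way between them. Timp1, an inhibitor of matrix metalloproteinases, fell by 3.28 and 3.19, and Wfdc2, a small secreted inhibitor, by 3.07 and 1.14. A2m had 88 reads in WT, 1 in dHep and 6 in labelled-KO libraries.

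Of 21 tested acute-phase genes, 1 rose and 6 fell in dHep and 2 rose and 5 fell in labelled-KO libraries, 33.3% of the list in each beside 24.3% and 43% of all tested genes. Lcn2 fell by 3.20 and 1.90 and Orm2 by 2.00 and 1.39, while the acute-phase serpin Serpina3n did not pass in either. Of 18 tested regulators of hepatocyte serpin genes, 4 rose and 1 fell in dHep, and 7 rose and 1 fell in labelled-KO libraries. These are 27.8% and 44.4% of the list, near the shares of all tested genes called in either direction. Most of the calls were higher, where 12.4% and 20.9% of all tested genes were called higher. Foxa3 rose by 1.31 and 1.54, and the values of Hnf4a, which the series title names, were 0.31 ± 0.13 and 0.32 ± 0.13 (SE) and did not pass (edgeR adjusted p = 0.105 and 0.0692). Of 13 tested genes that make or carry heparan sulfate, the cofactor of antithrombin and heparin cofactor II, 3 rose and 2 fell in each comparison. That is 38.5% of the list, beside 24.3% and 43% of all tested genes. In labelled-KO libraries this list was thus called no more often than other genes. Sdc4 was among those that rose, by 0.56 and 0.79. Of 5 hormone carriers and blood pressure genes, 2 rose and none fell in each comparison, Agt and Rbp4. These are 40% of that list, beside 24.3% and 43% of all tested genes.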
